A study of Apis mellifera with 138 samples.

Results

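The fat bodies described here were those of the worker bees with the most and the least vitellogenin (Vg) mRNA within their own colony and treatment group. Of 69 abdominal fat body libraries, 65 had at most 0.5% of their counts on bee virus genomes and were kept. Within each of the 6 combinations of colony and treatment the bees were ranked by the CPM of Vg, its count scaled to a common total of bee-gene counts, and n/3 of the n bees, rounded down, were taken from each end. The members were thus selected on their measured Vg counts, with no threshold in CPM. This gave 20 libraries with high Vg and 20 with low Vg, and left 25 middle libraries. Each library was the fat body of 1 bee, and the whole series held 138 libraries, the other 69 being brains. The groups were therefore made from a measured value and not by an experiment, and the differences below are associations with the Vg rank across bees.

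All bees were 5-day-old adult workers that had been fed 1000 pmol of an antagomir on day 3 and were collected 48 h later. An antagomir is a modified antisense RNA that sequesters a microRNA. One treatment was antag-305, directed against ame-miR-305-5p, and the other was antag-missense, the control antagomir. After feeding, each bee was caged alone with sucrose solution, so high and low bees alike were without nestmates and pollen for those 48 h. By the labels' extraction protocol, gut and sting were taken out of the abdomen and the fat body was collected on the cuticle. The 3 colonies, R2, R3 and R42, were separate trials, and the queens of the study were inseminated by a single drone, so bees of a colony were close relatives. The high and the low group each held 11 antag-305 and 9 antag-missense bees, with 7 bees from R2, 7 from R3 and 6 from R42.

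Vitellogenin is the main yolk precursor of insects. In worker honey bees, which rarely lay eggs, the fat body still secretes it, and nurse bees use it as a source of protein for brood food. It is known as an antagonist of juvenile hormone in adult workers and as a zinc-binding, antioxidant protein. The fat body itself combines the roles that liver and adipose tissue have in vertebrates: it stores lipid, glycogen and protein and releases storage, transport and immune proteins into the haemolymph.

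The Vg values that chose the groups are given as a description. Vg (gene3428; HAv3.1, chromosome 4, 5029485 to 5035661, minus strand) ranged from 4.90 to 88.0 CPM in the low libraries (median 32.6), from 28.7 to 149.8 CPM in the middle libraries (median 108) and from 84.6 to 582 CPM in the high libraries (median 222). The low and high ranges overlapped because ranking was done within colony and treatment. The ratio of the high to the low median was smallest in R3 antag-305 bees, at 3.33, and largest in R42 antag-missense bees, at 13.8. At the upper border the lowest high and the highest middle bee were close in R2 antag-305 (154 and 149.8 CPM) and in R3 antag-305 (147 and 145 CPM), and farther apart in R42 antag-305 (221 and 139 CPM). In R42 antag-missense the border ran between 84.56 and 84.62 CPM and so was nearly a tie. At the lower border the widest step was in R3 antag-missense, from 25.3 CPM in the highest low bee to 110 CPM in the lowest middle bee. Vg made up at most 0.0582% of the counts of any compared library, and it was left out of the fat body tests and of the library totals used in them. Its span overlapped 1 gene on the opposite strand and none on its own.

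**Figure D1:**
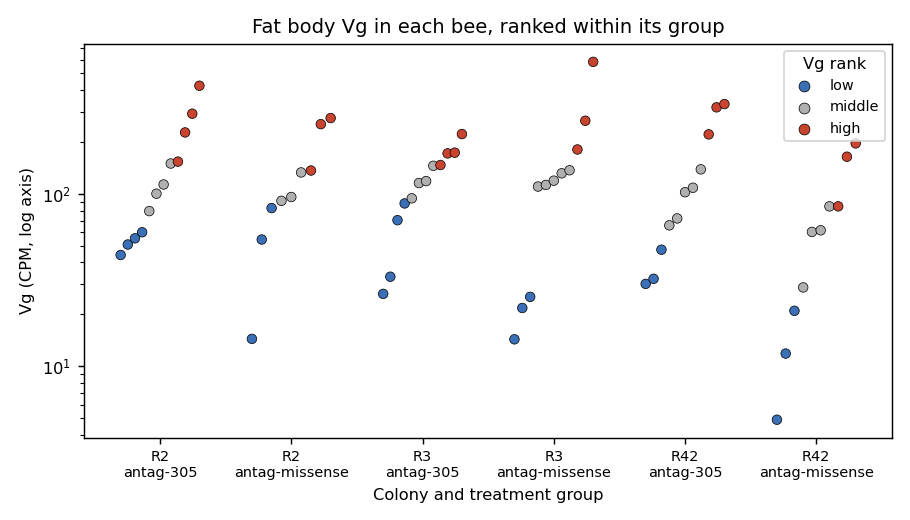
Vg in CPM (log axis) in each of the 65 kept fat body libraries, by colony and treatment, with each bee coloured by its rank. The low bees reached up to 88.0 CPM and the high bees began at 84.6 CPM, because each group was ranked on its own.

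The compared libraries held between 5346264 and 24779896 bee-gene counts, Vg included, with medians of 12386548 in the low and 14741079.5 in the high group. Total counts, the share on virus genomes (at most 0.00379% in any compared library) and the share on mitochondrial genes (median 7.56% in the low and 7.31% in the high group) did not pass a two-sided permutation test within colony and treatment (adjusted p from 0.367 to 0.488 over 14 measures). Of the marker sums, 4 differed. The sum of 6 fat body markers other than Vg (hexamerins, Tsf1 and the apolipophorin-III-like gene A4) ran from 4189 to 15642 CPM (median 6559.7) in the low group and from 5759.8 to 19155 CPM (median 10506) in the high group and was higher by 0.59 on the log2 scale (adjusted p = 0.000887). The sum of 7 troponin genes, taken as muscle markers, ran from 1256 to 3935 CPM (median 2508) in the low group and from 2001 to 4440.2 CPM (median 3752) in the high group and was higher by 0.54 (adjusted p = 0.000840). The sum of 27 genes of cuticle proteins and apidermins, taken as epidermal markers, was higher by 0.76 (adjusted p = 0.00742), and Cyp4g11, a marker of oenocytes, by 1.00 (adjusted p = 0.000887). These 4 sums were higher in the high group in each of the 3 colonies. Marker sums were taken as CPM of the bee-gene total, whereas the CPM of single genes below are also scaled by TMM factors, so the 2 scales differ slightly. In such bulk tissue, fewer cells of a type and less RNA per cell cannot be told apart.

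**Figure D2:**
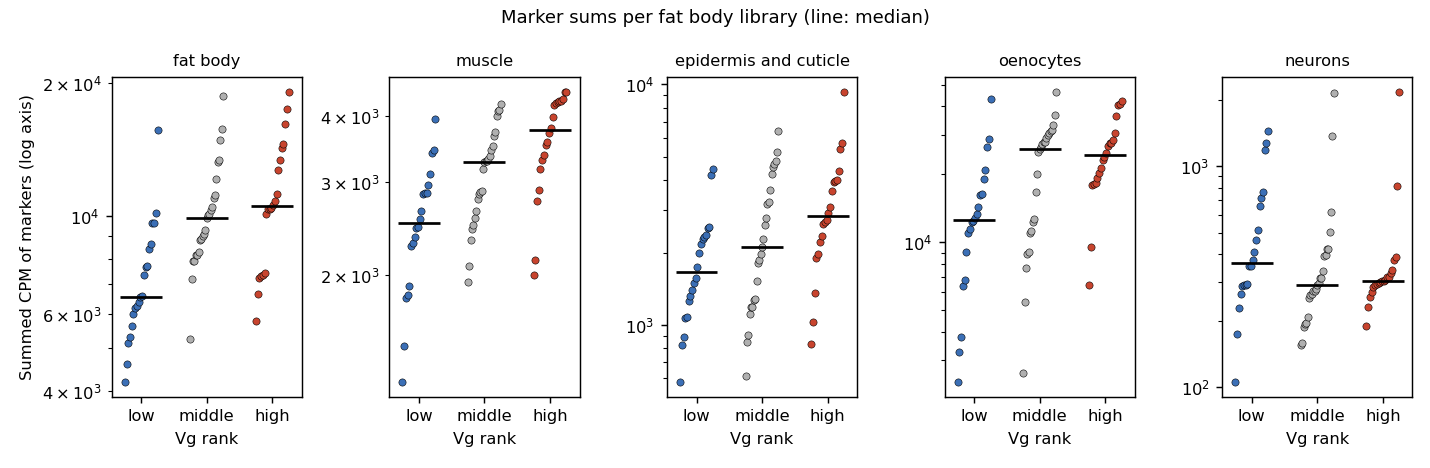
Summed CPM of the marker genes of each cell type (log axis; the fat body sum leaves out Vg) in every kept fat body library, by Vg rank, with the median as a line. Muscle markers had medians of 2508 CPM in the low and 3752 CPM in the high group, and the neuronal sum had 1 high library at 2177 CPM.

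Markers of other cell types were present in both groups. The sum of 20 neuronal genes ran from 105 to 1437 CPM (median 364) in the low group and from 189.8 to 2177 CPM (median 301) in the high group, and the groups did not pass the test (adjusted p = 0.388). The highest neuronal sum of the compared libraries, 2177 CPM, belonged to a high bee, bee 20 of R3 antag-305, whereas the next 3 were low bees at 1190 to 1437 CPM. Melittin and 3 other venom genes reached summed values of 8331 CPM in the low and 14723 CPM in the high group, with medians of 61.6 and 109 CPM. Prophenoloxidase (PPO), the single haemocyte marker measured, had medians of 168 and 235 CPM (adjusted p = 0.118). The genes Hbg2, Hbg3 and AGLU2, taken as gut markers though their source in these libraries was not tested, had summed medians of 108 and 143 CPM (adjusted p = 0.388). Of these, Hbg2 and Hbg3 were called higher, at 1.06 and 1.08 (FDR = 0.000648 and 0.00130), and AGLU2 was not called, at -1.41. The germ line markers had summed medians of 62.3 and 65.1 CPM (adjusted p = 0.220), and 1 of 3, nanos, was called higher at 0.39 (FDR = 0.0119).

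A large part of the fat body transcriptome went with the Vg rank. Of 8872 genes tested with colony and treatment in the model, 2889 (32.6%) passed an FDR of 0.05, 1387 of them higher (15.6%) and 1502 lower (16.9%) in the high group. The higher genes differed more: their median was 0.64 on the log2 scale and 207 of them were more than 2-fold higher, while the lower genes had a median of -0.37 and 36 of them were more than 2-fold lower. Over all tested genes the median was -0.06. The shares of 15.6% higher and 16.9% lower are the background for the counts of the gene lists below. For no tested gene were the 20 high libraries fully separate from the 20 low ones. The higher genes had longer spans (median 7702 bases, introns included) than the lower ones (2765 bases), beside 4238.5 bases over all tested genes. Of the higher genes, 46.9% had a mean log2 level in the brain libraries of the series more than 1 above that in the fat body, against 6.86% of the lower and 27.03% of all tested genes. Long noncoding RNAs were 4.83% of the higher and 1.26% of the lower genes, beside 6.36% of all tested genes.

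The list of storage and lipid transport proteins included the gene with the largest difference named here, Hex110. Of the 9 genes of this list, 8 were tested, 5 were higher in the high group and none was lower, with a list median of 1.42 beside -0.06 over all genes. The hexamerins are storage proteins that insects lay up as larvae and whose amino acids are used later. Hex110 (gene9139; chromosome 11, 13517503 to 13521591) ran from 0.0922 to 162 CPM (median 10.5) in the low group and from 11.6 to 1064 CPM (median 155) in the high group. All 20 high libraries lay above the low median, although the ranges overlapped. Within 3 of the 6 colony and treatment groups the high and low bees did not overlap at all. Such separation, among 3 or 4 bees per end, was counted for named genes only. No share over all tested genes therefore stands beside it here or below. The Hex110 difference was 3.38 ± 0.55 (SE) on the log2 scale, or 10.4-fold (FDR = 5.60e-05).

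Hex70a (gene7023; chromosome 8, 11848693 to 11852800) ran from 354 to 3327 CPM (median 1146) in the low group and from 1571 to 9621 CPM (median 3402) in the high group. Again every high library exceeded the median of all 20 low libraries, and the high and low bees were separate in 4 of the 6 groups. In R3 antag-305 bees the medians were nearly equal, at 1797.8 CPM in the low and 1802.4 CPM in the high bees. Hex70a was higher by 1.60 ± 0.27 (SE), or 3.03-fold (FDR = 7.74e-05). Its neighbour HEX70b (gene7024; chromosome 8, 11855314 to 11859108) ran from 1.56 to 24.6 CPM (median 8.84) in the low group and from 4.15 to 75.7 CPM (median 25.6) in the high group, a difference of 1.50 ± 0.30 (SE) (FDR = 0.000372). Of the high libraries, 17 were above the low median of HEX70b. Hex70c did not pass the filter on low counts.

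Tsf1, the iron carrier transferrin (gene11725; chromosome 15, 7734777 to 7737849), ran from 4.15 to 628 CPM (median 62.9) in the low group and from 28.6 to 1281 CPM (median 375) in the high group. The groups overlapped broadly, but 19 of the 20 high libraries were above the low median. The difference was 2.34 ± 0.36 (SE), or 5.06-fold (FDR = 3.99e-05). Its span overlapped another gene on the opposite strand. The highest Tsf1 values of the kept libraries were in middle bees, which took no part in this fit. With values scaled over all kept libraries, R3 antag-missense bees 24, 22 and 23 were at 8686, 4744 and 2197 CPM. On that scale the highest high bee was at 1323 CPM, and the other middle bees ran from 15.7 to 772 CPM. Vhdl, a very-high-density lipoprotein of the haemolymph (gene10251; chromosome 13, 4309579 to 4315590), ran from 1.11 to 13.7 CPM (median 3.80) in the low group and from 3.66 to 28.2 CPM (median 8.97) in the high group. It was higher by 1.34 ± 0.27 (SE) (FDR = 0.000341), but it shared part of its span with another gene on the same strand, and without colony R2 its difference was 0.99 with an FDR of 0.0599. The high median of Vhdl was above the low median in 5 of the 6 groups. In R3 antag-305 it was below, at 7.12 against 7.56 CPM. The other tested members did not pass, with A4 at 0.16 (FDR = 0.468) and the 2 fatty acid binding protein genes at 0.10 (FDR = 0.650) and -0.13 (FDR = 0.464).

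**Figure D3:**
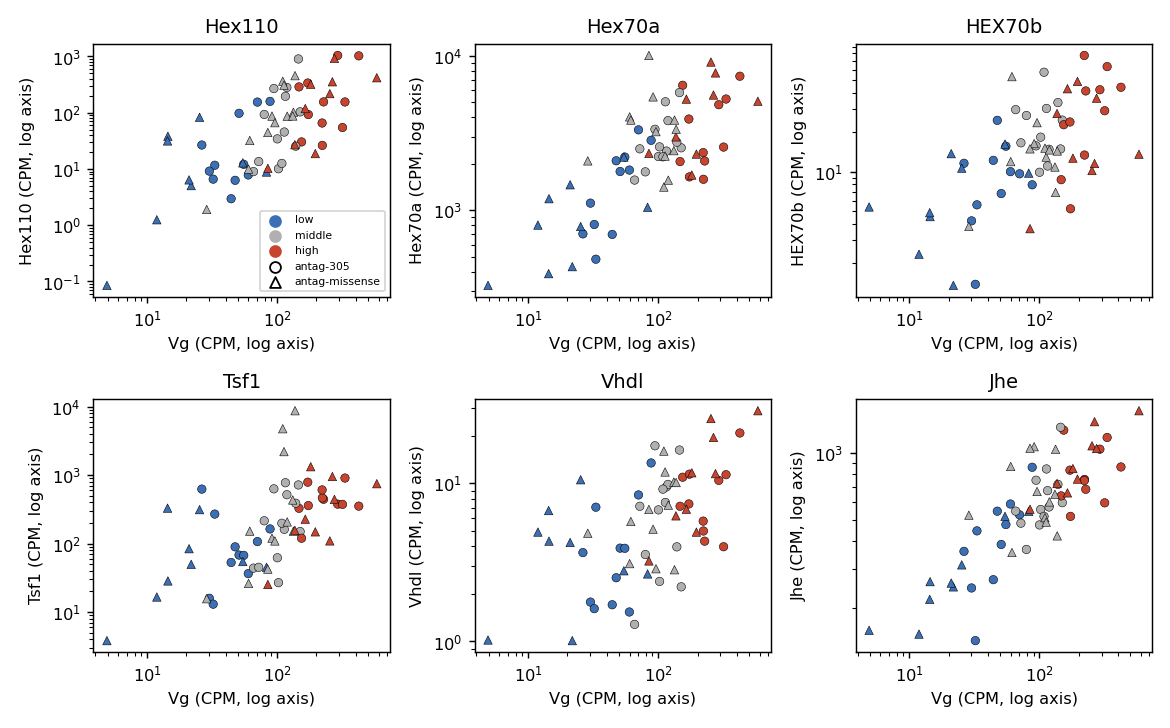
CPM of 4 storage and transport proteins, of Vhdl and of Jhe against CPM of Vg (both axes log) in the 65 kept libraries, with colours for the Vg rank and symbols for the treatment; values were scaled over these 65 libraries. On this scale all 20 high bees were above the low median of Hex70a and Jhe. For Hex110 all but bee 24 of R42 antag-missense, at 10.3 CPM, were above it. The low and high bees overlapped in every panel.

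Juvenile hormone esterase (Jhe), the enzyme that degrades juvenile hormone, was the only member of the hormone list that was higher. Jhe (gene2981; chromosome 3, 9456503 to 9459237) ran from 143 to 875 CPM (median 337) in the low group and from 499.7 to 1518 CPM (median 795) in the high group. All 20 high libraries were above the low median, and the bees were separate in 5 of the 6 groups. The difference was 1.26 ± 0.17 (SE), or 2.40-fold (FDR = 1.34e-05), and it was 1.14 in R2, 1.12 in R3 and 1.62 in R42. Its span overlapped another gene on the opposite strand. Of the 12 tested genes of juvenile hormone and ecdysone signalling, 1 was higher and 1 was lower, beside 15.6% and 16.9% of all tested genes. The list median was -0.16. The lower one was ecd, named for the Drosophila gene ecdysoneless, which that fly needs for normal ecdysone levels: it ran from 76.1 to 119 CPM (median 88.1) in the low group and from 52.7 to 96.8 CPM (median 68.9) in the high group, a small difference of -0.31 ± 0.07 (SE) (FDR = 0.00113).

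Krüppel homolog 1 (Kr-h1), the transcription factor induced by juvenile hormone, ran from 43.0 to 237 CPM (median 108) in the low group and from 63.2 to 229 CPM (median 146) in the high group. The high median was above the low median in 3 of the 6 groups, and the difference of 0.13 ± 0.15 (SE) did not pass the test (FDR = 0.503). The nuclear receptor ultraspiracle (Usp) likewise did not pass, at -0.15 ± 0.25 (SE) (FDR = 0.673). The ecdysone response factor Broad-Complex (Br-c) ran from 0.632 to 50.0 CPM (median 7.56) in the low group and from 0.139 to 91.8 CPM (median 1.36) in the high group, so the highest value was in a high bee although the high median was the lower. Its difference of -1.34 ± 0.67 (SE) had an FDR of 0.115. Without bee 20 of R3 antag-305 it was -1.97 with an FDR of 0.00474, and 3 genes of this list were then lower in place of 1.

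Of 5 tested genes of insulin, TOR and AKH signalling, which couple nutrient state to growth and storage, 1 was higher and none was lower. Among all tested genes 15.6% were higher. A regulatory subunit of phosphatidylinositol 3-kinase (LOC408577), which relays the insulin signal inside the cell, had a median of 43.6 CPM in the low group and 54.8 CPM in the high group and was higher by 0.54 ± 0.12 (SE) (FDR = 0.000937). The insulin receptor gene InR-2 ran from 0.406 to 21.95 CPM (median 4.09) in the low group and from 0.766 to 30.7 CPM (median 2.04) in the high group and did not pass, at -0.95 ± 0.43 (SE) (FDR = 0.0803). Leaving out bee 20 of R3 antag-305 changed it to -1.31 with an FDR of 0.00503. The receptor of adipokinetic hormone (Akhr), the hormone that mobilises lipid and sugar, was at -0.13 ± 0.11 (SE) (FDR = 0.360).

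Of 9 tested enzymes of lipid metabolism, 5 were higher and none was lower (list median 0.64). ACSF2, an acyl-CoA synthetase that activates fatty acids, ran from 6.82 to 27.4 CPM (median 12.4) in the low group and from 12.0 to 55.9 CPM (median 26.6) in the high group. Its difference was 1.09 ± 0.16 (SE) (FDR = 3.00e-05), with 19 of 20 high libraries above the low median. Acetyl-CoA carboxylase (LOC552286), which commits acetyl-CoA to fatty acid synthesis, had a median of 177 CPM in the low group and 289 CPM in the high group and was higher by 0.67 ± 0.22 (SE) (FDR = 0.0151). A long-chain fatty acid CoA ligase (LOC412541) and a triacylglycerol lipase (LOC411609) were higher by 0.64 ± 0.15 (SE) (FDR = 0.00150) and 1.04 ± 0.27 (SE) (FDR = 0.00305). With the muscle marker covariate described below, 1 of the 9 passed, and the lipase was at 0.06 with an FDR of 0.877. With the cuticle covariate 1 passed as well.

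Genes of sugar handling went the same way in part, with 5 of 9 higher and none lower (list median 0.32). The glycolytic enzyme fructose-bisphosphate aldolase (LOC550785) ran from 282 to 2153 CPM (median 1183) in the low group and from 657 to 2464 CPM (median 1855) in the high group and was higher by 0.69 ± 0.20 (SE) (FDR = 0.00703). A trehalose phosphate synthase (LOC408867), which makes the main sugar of insect haemolymph, was higher by 0.32 ± 0.12 (SE) (FDR = 0.0301), and a facilitated trehalose transporter (LOC551553) by 0.65 ± 0.22 (SE) (FDR = 0.0214). Without colony R2 a single gene of the list passed.

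The fat body was collected on the cuticle, and cuticle genes were among those higher. Of the 27 cuticle and apidermin genes, 13 were tested, and 8 of these were higher and none was lower (median 0.80). CPR22, a cuticular protein of the Rebers-Riddiford family, ran from 14.8 to 120.1 CPM (median 41.2) in the low group and from 34.7 to 196 CPM (median 116) in the high group and was higher by 1.31 ± 0.22 (SE) (FDR = 6.40e-05). The chitin-binding proteins Cpap3-b, Cpap3-c and Cpap3-d were higher by 1.40, 1.25 and 1.32 on the log2 scale (FDR = 0.000817, 0.000250 and 0.000660), and the counts of Cpap3-b are shared in part with a gene that overlaps it on the same strand. Cyp4g11, the cytochrome P450 that oenocytes use in the last step of hydrocarbon synthesis for the cuticle, ran from 2812 to 41076 CPM (median 12456) in the low group and from 7994 to 41074 CPM (median 25417) in the high group, a difference of 0.97 ± 0.22 (SE) (FDR = 0.00107). The highest values of both groups were nearly equal, and 18 of 20 high libraries were above the low median.

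Odorant-binding and chemosensory proteins are small carriers of hydrophobic ligands, many of them made outside the antenna. Of 18 tested, 5 were higher and none was lower (median 0.18). Obp14 (gene11238; chromosome 15, 1924191 to 1926002) ran from 368 to 3764 CPM (median 1487) in the low group and from 1030.0 to 7124 CPM (median 2989) in the high group, a difference of 0.94 ± 0.20 (SE) (FDR = 0.000464). Obp4 had a median of 65.3 CPM in the low group and 138 CPM in the high group and a difference of 0.90 ± 0.19 (SE) (FDR = 0.000570). CSP2 and CSP4 were called from low values, with high medians of 6.09 and 2.63 CPM, at 1.20 and 1.37 on the log2 scale (FDR = 0.000443 and 0.000585).

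Troponins, the calcium switch of muscle contraction, were higher in 4 of 7 cases and lower in none. TpnI (gene2231) ran from 94.0 to 595 CPM (median 325) in the low group and from 201 to 1262 CPM (median 799) in the high group, and 16 of the 20 high libraries were above the highest low library. The difference was 1.22 ± 0.21 (SE), or 2.34-fold (FDR = 0.000101). TpnT had a median of 181 CPM in the low group and 432 CPM in the high group and was higher by 1.07 ± 0.21 (SE) (FDR = 0.000239). TpnCI differed by 0.29 ± 0.10 (SE) (FDR = 0.0186), and TpnCIIIb was at -0.41 (FDR = 0.144), so the members differed unequally.

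Most neuronal genes pointed the other way without passing the test. Of the 17 tested, 11 had a negative and 6 a positive difference. The median of the 17 was -0.92, the lowest of any list, yet none was called lower and 1 was called higher. NLG-4, a neuroligin of the synapse, ran from 1.52 to 154 CPM (median 20.9) in the low group and from 0.277 to 249 CPM (median 3.82) in the high group, and 18 of the 20 high libraries lay below the low median. Its difference was -1.59 ± 0.68 (SE) (FDR = 0.0687). The acetylcholine receptor subunit nAChRa1 was at -1.29 ± 0.53 (SE) (FDR = 0.0560). When bee 20 of R3 antag-305 was left out, 9 of the 17 were lower, 2 were higher and the list median was -1.29. With that library kept, 10 were lower and 2 higher when Vg was fitted as a continuous value over all 65 libraries, and 9 lower and 5 higher with the neuronal sum as a covariate. The call of these genes thus depended on the fit as well as on that library. The subunit gene nAChRa9 had a median of 26.2 CPM in the low group and 50.0 CPM in the high group and was higher by 0.87 ± 0.25 (SE) (FDR = 0.00778). Syt1, another of the 17, was not called, but its high median was above its low median in all 6 groups.

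Of the 11 tested genes of the immune list, 1 was higher and 2 were lower, beside 15.6% and 16.9% of all tested genes, so these counts were near the background. With the muscle marker covariate none passed. Def1, which encodes the antimicrobial peptide defensin 1, ran from 6.92 to 778 CPM (median 49.7) in the low group and from 5.38 to 155 CPM (median 16.6) in the high group. Of the high libraries, 18 were below the low median, and the difference was -2.32 ± 0.60 (SE), or 0.200 of the low level (FDR = 0.00293). It was -1.89 in R2, -3.07 in R3 and -0.99 in R42, and without colony R2 its FDR was 0.0621. Without bee 26 of R2 antag-305 the difference was -1.43 (FDR = 0.0297), and with continuous Vg over all 65 libraries it was -0.28 with an FDR of 0.519 per doubling of Vg. Imd, the adaptor of the pathway that induces antimicrobial peptides, ran from 90.7 to 255 CPM (median 128) in the low group and from 57.3 to 137 CPM (median 76.4) in the high group, a difference of -0.70 ± 0.13 (SE) (FDR = 0.000212), and its high median was the lower in all 6 groups. B-gluc1 was called higher at 0.31 ± 0.12 (SE) (FDR = 0.0495), a call that was lost in 4 of the 40 fits that left out 1 library. PPO, the enzyme of melanisation, did not pass at 0.39 ± 0.19 (SE) (FDR = 0.101).

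For protein synthesis and secretion few genes passed, beside 15.6% higher and 16.9% lower of all tested genes. Of 24 cytosolic ribosomal protein genes, 3 were higher and none was lower (median 0.11), with RpL32 at 0.41 ± 0.14 (SE) (FDR = 0.0190) and Rps14 at 0.49 ± 0.16 (SE) (FDR = 0.0183). Mitochondrial ribosomal proteins had 1 lower gene of 20. Of 7 genes of the endoplasmic reticulum, X-box-binding protein 1 (LOC408853), the transcription factor of the unfolded protein response, differed by -0.22 ± 0.08 (SE) (FDR = 0.0302), a call lost in 28 of the 40 fits that left out 1 library, and SsRbeta, a subunit of the signal sequence receptor complex, was higher from levels near 1 CPM (FDR = 0.0422). Without bee 20 of R3 antag-305, 10 of the 24 cytosolic ribosomal protein genes were higher and none was lower. Of the 7 genes of the endoplasmic reticulum, 4 were then higher and none was lower. With that library kept, 10 of the 24 were higher without colony R42 and 8 with the muscle marker covariate, and none was lower. Of the 7, 0 were called in either of these fits. The ribosomal count thus depended on the fit as well as on that library. Calreticulin (LOC409165), a chaperone of secreted proteins, was at 0.16 ± 0.10 (SE) (FDR = 0.210).

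Of 15 heat shock genes, 2 were higher and 4 lower, beside 15.6% and 16.9% of all tested genes, and with the muscle marker covariate 0 were higher and 1 was lower. Hsc70-4, the constitutive cytosolic chaperone, ran from 271 to 3730.4 CPM (median 1383) in the low group and from 650.4 to 6563 CPM (median 3485) in the high group and was higher by 1.08 ± 0.29 (SE) (FDR = 0.00366). Heat shock protein 83 (LOC411700), the Hsp90 of insects, ran from 380.1 to 1467 CPM (median 589.6) in the low group and from 222 to 1013 CPM (median 455) in the high group and differed by -0.55 ± 0.14 (SE) (FDR = 0.00204), and the activator of Hsp90 ATPase (LOC551720) was also lower, at -0.47 ± 0.08 (SE) (FDR = 5.60e-05). One of 9 proteasome genes was lower (LOC409831, -0.32 ± 0.09 (SE), FDR = 0.00893).

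For energy metabolism, none of the 12 tested genes of the respiratory chain on the mitochondrial genome passed the test, and of 26 nuclear genes of the chain and ATP synthase 1 was higher and 3 were lower (median -0.03). The higher one was ATP5G2, a subunit of the membrane ring of ATP synthase, at 0.53 ± 0.14 (SE) (FDR = 0.00345). With size factors by relative log expression (RLE), also from edgeR, in place of TMM factors, the split of the 26 was 4 higher and 1 lower. Without bee 20 of R3 antag-305 it was 7 higher and 1 lower, and without colony R42 it was 7 higher and 0 lower. With the muscle marker covariate 0 of the 26 were called. Among 11 antioxidant genes, catalase (Cat) was higher by 0.40 ± 0.14 (SE) (FDR = 0.0245) and the glutathione transferase GstD1 by 0.41 ± 0.13 (SE) (FDR = 0.0169), and none was lower. Of all tested genes 15.6% were higher, so 2 of 11 higher was near the background. Of 3 tested genes of the royal jelly family, Mrjp8 was higher by 0.37 ± 0.14 (SE) (FDR = 0.0460), and the other 6 of the family did not pass the filter on low counts. The Mrjp8 call was lost in 3 of the 40 fits that left out 1 library, and 12 of the 20 high libraries were above its low median.

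**Figure D4:**
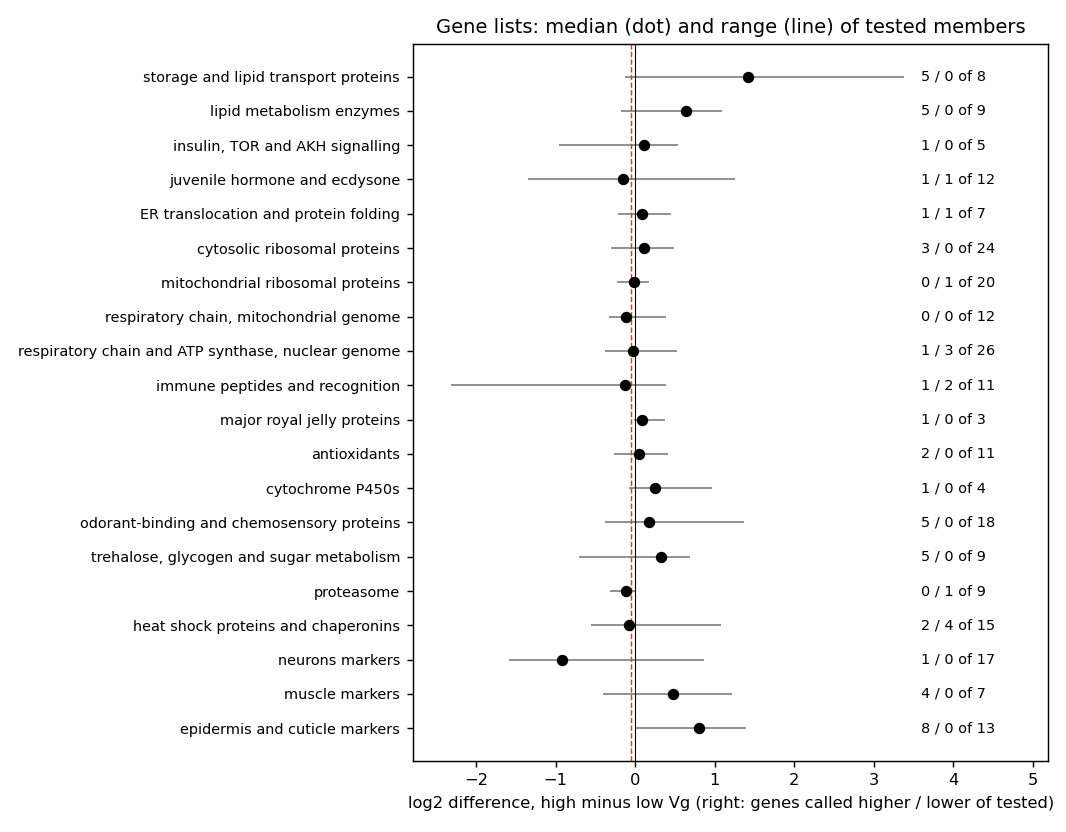
Median (dot) and range (line) of the log2 difference, high minus low Vg, over the tested members of each list, with the numbers called higher and lower at the right; the dashed line is the median of all tested genes, -0.06. The storage proteins had a median of 1.42 and the neuronal markers one of -0.92.

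Of the 10 higher genes of smallest P, Jhe alone has a gene name in the annotation used here. LOC408452 (gene10753; chromosome 14, 5789174 to 5791327) ran from 17.9 to 55.3 CPM (median 30.9) in the low group and from 42.9 to 158 CPM (median 81.5) in the high group, a difference of 1.46 ± 0.16 (SE) (FDR = 2.05e-07), and 17 of the 20 high libraries were above the highest low library. LOC408961 (gene6599; chromosome 8, 5142758 to 5179126) ran from 208 to 869 CPM (median 525.8) in the low group and from 549.9 to 2409 CPM (median 1058) in the high group. It was the one of the 10 higher genes in which high and low bees were separate in all 6 groups. The 10 were picked for smallest P, and the share of all tested genes separate in this way was not counted. The largest difference among these 10 was that of LOC413324, at 2.003 ± 0.27 (SE) (FDR = 8.82e-06). The others were LOC408797, LOC409196, Jhe, LOC408650, LOC725621, LOC100577943 and LOC409821, with differences from 0.65 to 1.58.

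The 10 lower genes of smallest P had differences from -0.66 to -0.39. LOC100576761 (gene9529; chromosome 11, 16317440 to 16324873) ran from 27.8 to 63.4 CPM (median 43.5) in the low group and from 20.3 to 40.7 CPM (median 27.4) in the high group, with a difference of -0.60 ± 0.08 (SE) (FDR = 1.34e-05), and all 20 high libraries were below the low median. LOC725618 (gene10006) ran from 103 to 168 CPM (median 121) in the low group and from 82.2 to 134 CPM (median 93.4) in the high group, and its high and low bees were separate in 5 of the 6 groups. The others were LOC413591, LOC409548, LOC102654312, LOC552590, LOC551515, LOC726197, LOC411423 and LOC550903. None of these 20 genes lost its call when any 1 library was left out, and each kept its direction in every colony, which the rule for naming them required.

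Genes the study linked to miR-305 were looked up as well. PTP-ER (LOC552694), a protein tyrosine phosphatase that acts on ERK in Drosophila, ran from 18.9 to 105 CPM (median 47.7) in the low group and from 48.9 to 121 CPM (median 75.8) in the high group and was higher by 0.61 ± 0.14 (SE) (FDR = 0.000918). The bHLH repressor hairy (LOC410468) had a median of 10.5 CPM in the low group and 11.7 CPM in the high group and did not pass, at 0.19 ± 0.18 (SE) (FDR = 0.403). Enhancer of split m7 (LOC409822), another repressor of this class, had a median of 1.33 CPM in the low group and 2.57 CPM in the high group and was called at 0.93 ± 0.35 (SE) (FDR = 0.0360), but in antag-missense bees alone its difference was -0.31 (FDR = 0.616).

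Because the muscle, epidermal and oenocyte markers were higher in the high group, the fit was repeated with marker sums as covariates. With the troponin sum, 290 genes passed in place of 2889, 136 of them shared. The genes called higher had a median of 0.18 in that fit, against 0.64 without the covariate. In that fit 5 of the 8 storage and transport proteins were higher, among them A4, which had not passed before. Of the 5 called before, 4 passed again: Hex110 was at 2.63 with an FDR of 0.0358, Hex70a at 1.39 with an FDR of 0.0301, Tsf1 at 1.13 with an FDR of 0.0358 and Vhdl at 1.18 with an FDR of 0.0382, whereas HEX70b was at 0.38 with an FDR of 0.287. Jhe stayed at 1.00 with an FDR of 0.0109, and Obp14 and Obp4 were larger, at 1.31 and 1.27. Genes that no longer passed included Cyp4g11 at 0.20 with an FDR of 0.534, Hsc70-4 at 0.04 with an FDR of 0.923, acetyl-CoA carboxylase at 0.12 with an FDR of 0.766, aldolase at 0.03 with an FDR of 0.916, CPR22 at 0.78 with an FDR of 0.0621, Imd at -0.41 with an FDR of 0.0858 and Def1 at -1.72 with an FDR of 0.123. All 10 higher and all 10 lower genes of smallest P passed in that fit, but no gene of the sugar, insulin, immune or cuticle lists did. With the cuticle sum, an alternative chosen after seeing the data, 540 genes passed. How much of each difference came with the amount of muscle or epidermis in the dissection was not tested.

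**Figure D5:**
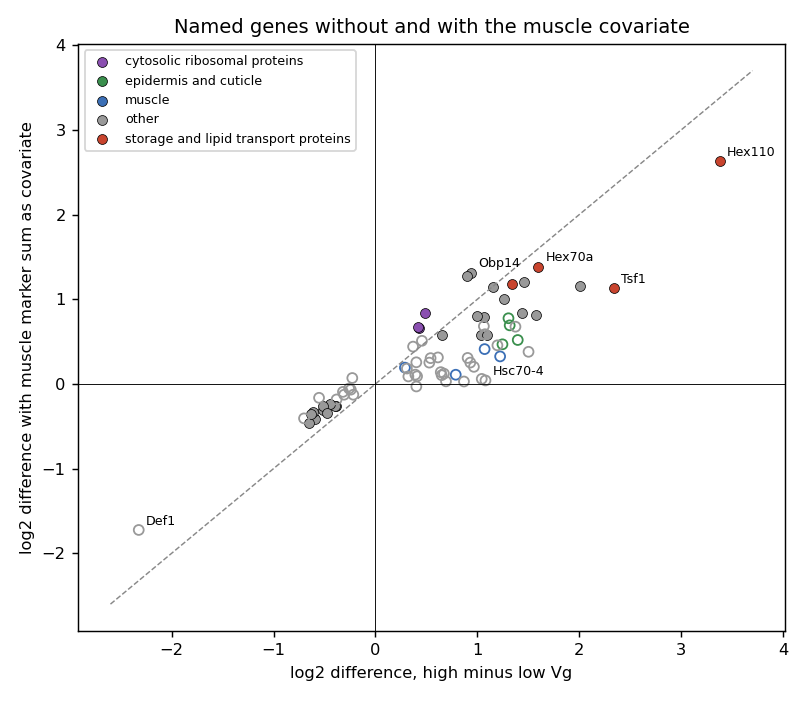
Log2 difference between high and low Vg without (x axis) and with (y axis) the summed troponins as a covariate, for the 75 named genes that passed the first fit; filled points passed the second fit as well, open points did not, and the dashed line marks equal values. Hex110 went from 3.38 to 2.63 and Hex70a from 1.60 to 1.39, both still passing, while Hsc70-4 went from 1.08 to 0.04.

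The 3 colonies contributed unequally. Fitted alone, R2 gave 2077 genes at an FDR of 0.05, R3 gave 1 and R42 gave 0 (23.4%, 0.0113% and 0% of 8872), from 14, 14 and 12 libraries. At an unadjusted P under 0.05 the numbers were 3431, 1057 and 1549. Without R2 the joint fit called 1058 genes, 1001 of them among the 2889. Even so, 99.3% of the 2889 genes had the same sign in all 3 colonies, beside 70.6% of all tested genes, and the selection over the 3 colonies favours such genes. The interaction of the Vg rank with colony was called for 0 of 8872 genes (0%) by edgeR, with 222 at an unadjusted P under 0.05, and for 0 with RLE size factors. Each colony was a trial of its own, and the effects of both cannot be told apart. Hex110 differed by 4.25 in R2, 1.95 in R3 and 3.99 in R42, and Tsf1 by 2.50, 1.30 and 2.97.

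Genes passed within both treatments. In the 22 antag-305 bees, 2120 genes passed (23.9%), 1799 of them among the 2889, and in the 18 antag-missense bees 1834 passed (20.7%), 833 of them among the 2889. Hex110 was at 2.94 in antag-305 and 3.91 in antag-missense bees, Hex70a at 1.07 and 2.34, and Jhe at 0.92 and 1.71. The interaction of the Vg rank with treatment was called for 0 of 8872 genes (0%) by edgeR, although 1948 had an unadjusted P under 0.05, and without colony R3 it was called for 352.

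The 25 middle libraries, which took no part in these fits, spanned a narrow range of Vg. No gene of 8872 (0%) had a slope on log2 Vg that passed in edgeR, and 1709 had an unadjusted P under 0.05. Of the 1387 genes called higher, 1200 had a positive slope in the middle bees (86.5%), beside 57.0% of all tested genes, and of the 1502 called lower, 1120 had a negative slope (74.6%), beside 43.0% of all. Hex70a had a slope of 1.00 and Hex110 one of 1.51 per doubling of Vg, and neither of these slopes passed. These shares rested on R42: without that colony they were 33.8% of the higher and 49.5% of the lower genes, with 49.2% of all slopes positive.

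In the brains of the same 40 bees no gene passed. Of 9096 genes tested, 0 (0%) passed in edgeR, with 207 at an unadjusted P under 0.05. Brain Vg had medians of 1.03 CPM in the bees with low and 2.92 CPM in those with high fat body Vg, and the difference of 0.86 on the log2 scale did not pass a two-sided permutation test within colony and treatment (p = 0.0917).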

How the data were processed

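RNA of abdominal fat body and brain was sequenced from poly(A) libraries of a stranded kit on a NovaSeq. The deposited values are whole-number counts per gene, which the authors made by aligning reads to HAv3.1 with STAR 2.7.6a and counting them with featureCounts of Subread 2.0.0. Use of strand in counting was not given in the sources used here, so reads of genes that overlap on opposite strands may be mixed. Bee-gene counts (12332 genes) were kept apart from 5 virus genomes. Libraries with more than 0.5% viral counts (4, all antag-missense) were left out, and the 0.05% limit of the study kept the same 65. Compared libraries held 5346264 to 24779896 counts.

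Vg was removed, genes over 1 CPM in at least 20 libraries were kept (8872), and TMM factors and edgeR 4.0.16 quasi-likelihood tests (R 4.3.3) were used with colony and treatment as blocks and a Benjamini-Hochberg FDR of 0.05. Log2 differences are high minus low. Within-colony, within-treatment, interaction, middle-bee and brain fits used the same test. Single measures were compared with 100000 permutations within colony and treatment. DESeq2 1.42.0, limma 3.58.1 and sva 3.50.0 served as alternatives. The procedure was tested on simulated data. Single bees were the replicates.

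Named genes were, in each direction, the 10 called genes of smallest P with 1 sign in all 3 colonies. To these were added up to 4 tested members of smallest P of each list, the genes measured by RT-qPCR in the study, hairy, E(spl)m7 and PTP-ER. Genes of the Vg family other than Vg were planned as well, but none was named under that rule. InR-1 was not matched by its symbol and is not analysed here. Other members are named where a comparison turned on them, chosen after their values were seen. Names came from RefSeq symbols (12325 genes matched) and descriptions from the study's supplementary gene tables for 788 genes. The groups, the members and the lists were chosen with earlier results of these data known, and the lists were completed after a first fit.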

Additional observations from a re-analysis of the deposited data

Results flagged for a closer look

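In the 9 R2 antag-missense libraries, 1 fat body had a summed neuronal marker level of 764 CPM, far above the next library at 465 CPM. It was the one result marked among 21 sets of 4 to 10 libraries examined with Dixon's test, for which chance gives about 1 in 20. Groups of more than 10 libraries were not examined in this way, and they held wider gaps, as in R2 antag-305, where a middle bee had a neuronal sum of 2152 CPM and the next library 619 CPM.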

How the results depend on the processing

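Against 2889 called genes, limma-voom with quality weights called 4954, continuous Vg over all 65 libraries 4785, the neuronal covariate 4618, the muscle covariate 290, and the fit without colony R2 1058. The cuticle covariate (540 genes) and the 4 marker covariates together (360) were chosen after seeing the data. Leaving out each of the 40 libraries gave 2576 (without bee 17 of R42 antag-305) to 3875 (without bee 20 of R3 antag-305), and 67 of the 75 named called genes passed in all 40 fits. A replicate block, in which 5 of 7 same-number pairs held 1 high and 1 low bee, called 0 genes in edgeR (1095 at an unadjusted P under 0.05). The labels do not pair bees of equal number, whose deviations correlated at -0.51 to 0.72 (median -0.15, 9 of 26 over 0.1), and 3 of 26 correlated best with their own number. The middle bees without R2 gave 709 calls in place of 0, the treatment interaction without R3 gave 352, and brain Vg without R42 differed by 1.32 (p = 0.0436). Signs turned for Def1 with all kept bees split at the middle rank (0.0197), for LOC411609 (-0.0918), Hsc70-4 (-0.0124), nAChRa9 (-0.0213), Gfat2 (-0.12) and LOC413121 (0.0632) with 4 covariates, for Gfat2 (-0.0295) and LOC413121 (0.0701) with the muscle covariate, for LOC409822 in antag-missense bees (-0.31), and for B-gluc1 with the replicate block (-0.0048). Higher genes were 48.0% of calls, and 53.6% with RLE size factors. The DESeq2 Wald test called 3494 genes, 49.1% of them higher. Within the other settings, higher genes were 61.3% of calls when bees were ranked on TMM-scaled totals and 58.1% with n/4 bees per end. They were 62.6% without R42 and 28.2% in antag-missense bees alone. The cause of these shifts was not tested. The split at the middle rank called 4108 genes. Without 12 libraries of high neuronal or venom markers, an alternative chosen after seeing the data, 2784 passed.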
